A study of Mus musculus with 12 samples.

Results

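The 10 core circadian clock genes Arntl, Clock, Per1, Per2, Per3, Cry1, Cry2, Nr1d1, Nr1d2 and Dbp were followed in iWAT, the white fat of the groin, where beige adipocytes arise upon cold. They were chosen by symbol from the 23420 genes of the count table, with earlier results of these data known. All 10 were found and passed the filter on low counts. RNA was sequenced from whole fat pads of 12 male C57BL/6 mice aged 10 weeks, with 3 mice in each of 4 groups. Mice were kept at thermoneutrality (TN, 30 °C) for 1 week or in the cold (4 to 6 °C) for 3 days. All 12 mice carried HIF2a loxP/loxP alleles. WT mice had no Cre, and HIF2α AKO mice also carried Adipoq-Cre, which acts in cells that express adiponectin, so that Cre and the deletion were always present together and the other cells of the pad kept the gene. The light was on a 12-h cycle per the study's methods, and the time of day at which pads were taken is not given in the sources used here.

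The clock of a mammalian cell is a transcriptional loop. BMAL1 (encoded by Arntl) and CLOCK bind E-boxes and activate the Per, Cry, Nr1d and Dbp genes. The PER and CRY proteins then inhibit BMAL1 and CLOCK, the REV-ERB receptors (Nr1d1, Nr1d2) repress Arntl, and DBP activates genes that hold D-boxes. Adipose tissue runs such a clock, and in it lipid metabolism and thermogenic genes vary over the day.

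Each library held between 22368316 and 35204631 counts. Values are given as CPM, the share of a library's counts after TMM scaling, and were compared in 1 edgeR quasi-likelihood fit of all 4 groups with Benjamini-Hochberg adjustment over the 15306 genes tested. A gene was called at an adjusted p under 0.05, and log2 fold changes are given with their standard error (SE). Epas1, the HIF2α gene, gave no lower values in libraries labelled HIF2α AKO. At TN these were at 289 to 394 CPM, against 278 to 430 CPM in WT. In the cold they were at 743 to 986 CPM, against 562 to 743 CPM in WT. There each was above each WT library, with a log2 fold change of 0.40 (SE 0.20) that was not called. The study reported lower mRNA of the deleted Hif genes in adipose tissue of its knockout mice. Since a count sums reads over all exons, the floxed part alone cannot be read from it, and genotypes are named by their labels. Ucp1, the uncoupling protein of thermogenic adipocytes, was between 0.204 and 3.85 CPM in TN libraries and between 2171 and 5897 CPM in cold libraries. The 12 skeletal muscle markers summed to 2018 CPM in TN AKO replicate 2 and 1758 CPM in cold AKO replicate 1, against at most 134 CPM elsewhere, and the 6 epithelial markers to 228 CPM in TN WT replicate 3 against at most 7.95 CPM elsewhere. Where a call of a core clock gene changed without these 3 libraries, the result without them is given as well. Whether the calls of other genes change without them was not tested.

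The genes lie on 8 autosomes of GRCm38, none of them on chromosome 17 with Epas1 or chromosome 16 with Adipoq. Arntl (chr7:113207465-113314126, plus strand) and Dbp (chr7:45705088-45710203, plus strand) share chromosome 7, and Per1 (chr11:69095217-69109960, plus strand) and Nr1d1 (chr11:98767932-98775333, minus strand) share chromosome 11. The other six are Clock (chr5:76209868-76304792), Per2 (chr1:91415982-91459324), Per3 (chr4:151003652-151044665), Cry1 (chr10:85131700-85185064), Cry2 (chr2:92403646-92434043) and Nr1d2 (chr14:18204054-18239127), all on the minus strand. Dbp shares 539 of its 1837 exon bases with Sphk2 on the opposite strand, Nr1d1 shares 263 exon bases with Thra, and Cry2 shares 149 with D930015M05Rik. Whether reads were counted by strand is not given in the sources used here, so reads in these shared stretches may have been assigned to neither or to either gene.

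Promoter windows of 300 bases, from 250 before to 50 after a RefSeq start site, were at hand for 9 genes (GRCm38.p6) and not for Per2. They were searched on both strands for an E-box (CACGTG), an E-prime box (CACGTT), a D-box (TTATGTAA or TTACGTAA), a cAMP response element (TGACGTCA), the core of the ROR element to which REV-ERB binds (AGGTCA) and the HIF core (ACGTG). The HIF core lies inside both kinds of E-box, so that each E-box counts for it as well. A match of letters is a description and not a site shown to be bound. The windows that held an E-box or E-prime box, and the D-boxes of Per3, which rose upon cold, are shown with the motif in capitals, on the strand of the gene.
Per1 E-box (chr11:69098771-69098800, plus strand): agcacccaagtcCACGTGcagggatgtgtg
Cry1 E-box (chr10:85185097-85185126, minus strand): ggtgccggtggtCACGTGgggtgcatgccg
Cry1 E-prime box, reverse complement (chr10:85185116-85185145, minus strand): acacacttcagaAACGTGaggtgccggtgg
Cry2 E-prime box, reverse complement (chr2:92434218-92434247, minus strand): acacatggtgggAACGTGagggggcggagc
Nr1d1 E-prime box, reverse complement (chr11:98775388-98775417, minus strand): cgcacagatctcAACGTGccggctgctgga
Per3 first D-box (chr4:151044852-151044881, minus strand): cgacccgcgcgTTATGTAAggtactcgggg
Per3 second D-box (chr4:151044805-151044834, minus strand): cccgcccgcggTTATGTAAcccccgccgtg

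The 9 genes had 13 windows, since some have more than 1 start site. An E-box was found in 2 of these 13 windows, against 7.15% of the 32851 windows of all genes, and an E-prime box in 3 of 13, against 4.68%. The ROR element core was found in 4 of 13 windows (Arntl, Clock, Per1 and Nr1d2), against 16.3% of all windows, and the HIF core in 5 of 13 (Per1, Cry1, Cry2, Nr1d1 and Dbp), against 19.6%. Outside the E-boxes, the HIF core was found in the window of Dbp, at position -227 from its start. None of the 13 windows held the cAMP response element, which was in 1.79% of all windows. A D-box was found in 1 of 13 windows, that of Per3, against 1.06% of all windows, and the Per3 window held it at positions -205 and -158 from the start. Windows with a D-box more than once were rare, at 8 of 32851 or 0.0244%.

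Upon cold, the period genes Per2 and Per3, the D-box activator Dbp, the REV-ERB gene Nr1d2 and, by less, Clock rose, whereas Arntl did not pass the test. Over both genotypes, cold against TN thus called 5 of the 10 genes, all of them higher. Of all tested genes 48.8% were called in this comparison, 24.8% as higher and 24% as lower, so that a call by itself is common upon cold. The median log2 fold change was 0.52 over the 10 genes and -0.05 over all tested genes. None of the 10 was called lower. Clock genes vary over the day, and the time of day of collection is not given for any group. Exposure also lasted 3 days in the cold and 1 week at TN. A difference between cold and TN cannot be told apart from a difference in either of these. The study's methods set looser thresholds, in DESeq2, for cold HIF2α AKO against cold WT. These were p under 0.15 before adjustment and a log2 fold change beyond 0.2 either way. Here they were applied to the edgeR values of each comparison. Over both genotypes all but Arntl passed upon cold, 9 of the 10 against 59.9% of all tested genes. In the plot of CPM by group, the groups can be compared mouse by mouse.

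**Figure D1:**
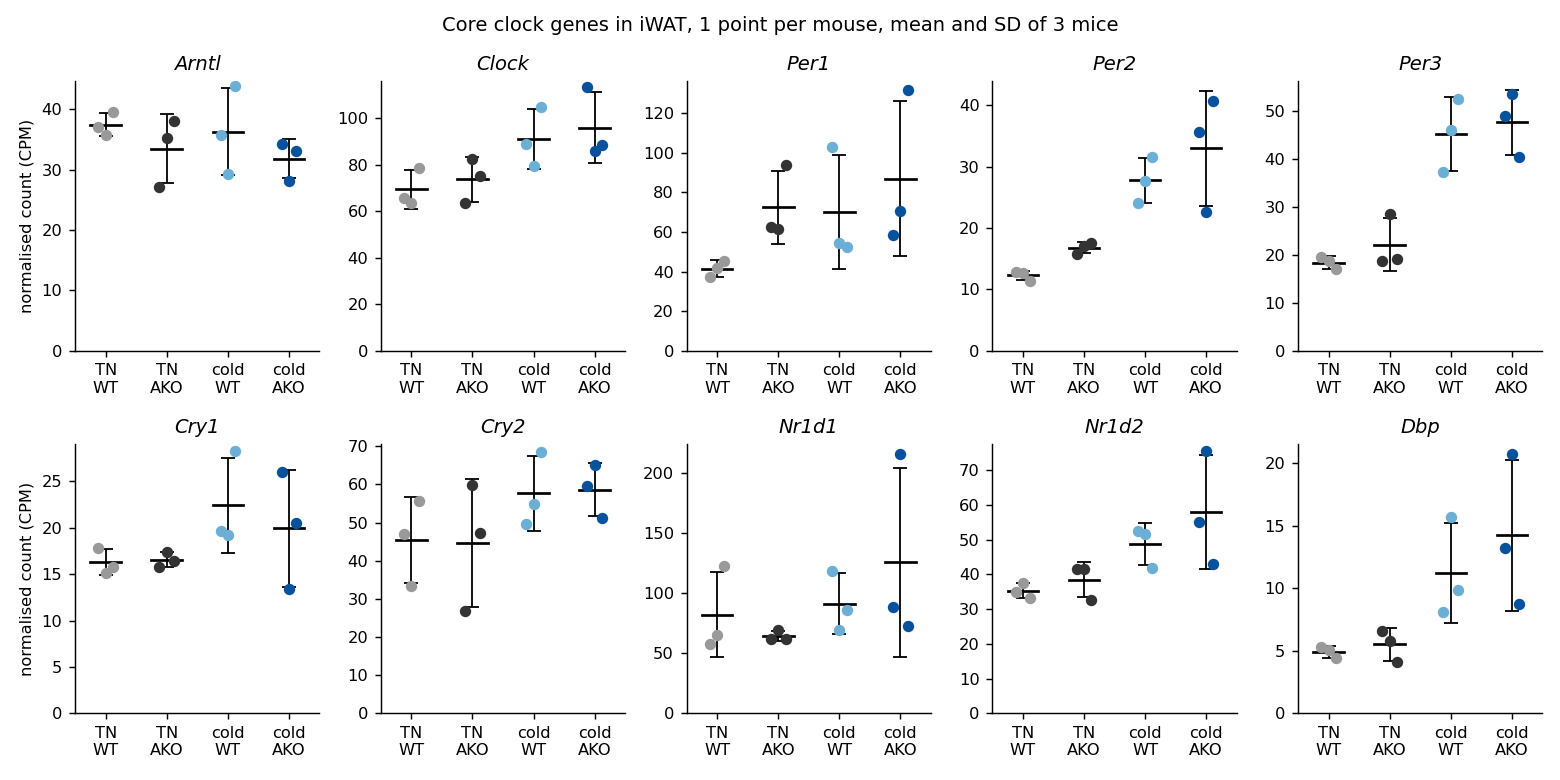
CPM of the 10 clock genes by group, 1 point per mouse, with the mean as a line and the SD as bars (3 mice per group, axes from 0). Per2, Per3, Nr1d2 and Dbp were higher in each of the 6 cold mice than in each of the 6 TN mice, whereas Arntl overlapped between temperatures.

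Arntl encodes BMAL1, the partner that the loop cannot run without. Its CPM was 37.0, 35.8 and 39.5 in TN WT, 27.1, 35.3 and 38.1 in TN libraries labelled HIF2α AKO, 35.7, 29.3 and 43.8 in cold WT and 34.2, 28.1 and 33.1 in cold libraries labelled HIF2α AKO. The 4 groups overlapped. Its log2 fold change upon cold was -0.06 (SE 0.11, adjusted p = 0.669), and it turned to 0.003 without cold WT replicate 2. Clock encodes the partner of BMAL1. It was between 63.5 and 82.7 CPM in the 6 TN mice and between 79.4 and 113 CPM in the 6 cold mice, where TN AKO replicate 2 was above cold WT replicate 2. Clock rose by 0.39 on the log2 scale (SE 0.11, adjusted p = 0.0128), and the exact two-sided permutation test of 6 mice against 6 gave p = 0.00433. The ratio of Arntl to Clock CPM within a library, not corrected for length, was 0.543 ± 0.0354 (SD, n = 3) in WT mice at TN and 0.397 ± 0.0246 (SD, n = 3) upon cold. It was 0.453 ± 0.0458 (SD, n = 3) at TN and 0.334 ± 0.0359 (SD, n = 3) upon cold in mice labelled HIF2α AKO. In each genotype the TN and cold ratios did not overlap.

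The period genes encode the proteins that close the loop by inhibiting BMAL1 and CLOCK. Per2 was at 12.8, 12.7 and 11.4 CPM in TN WT and at 15.8, 17.1 and 17.5 CPM in TN libraries labelled HIF2α AKO, and at 24.2, 27.6 and 31.5 CPM in cold WT and 35.7, 22.6 and 40.8 CPM in cold libraries labelled HIF2α AKO. All 6 cold mice were above all 6 TN mice. The log2 fold change of Per2 was 1.08 (SE 0.13, adjusted p = 1.32e-04), a fold of 2.11. Per3 was at 19.6, 18.7 and 17.0 CPM in TN WT, 18.9, 28.6 and 19.1 CPM in TN libraries labelled HIF2α AKO, 37.3, 46.2 and 52.7 CPM in cold WT and 49.0, 53.7 and 40.4 CPM in cold libraries labelled HIF2α AKO. Here too no cold mouse was as low as a TN mouse, the nearest TN library being AKO replicate 2. Per3 had a log2 fold change of 1.20 (SE 0.13, adjusted p = 5.95e-05), a fold of 2.30. For both genes the exact permutation test gave p = 0.00217, the smallest that 6 mice against 6 allow, and 16% of all tested genes were higher in every cold mouse than in every TN mouse. Camta1, whose span covers Per3 on the same strand without shared exon bases, had a log2 fold change of 0.10 upon cold (adjusted p = 0.508).

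Per1 did not pass the test. Its CPM was 37.1, 41.9 and 45.4 in TN WT, 62.3, 61.3 and 93.9 in TN libraries labelled HIF2α AKO, 103, 54.5 and 52.4 in cold WT and 58.7, 70.4 and 132 in cold libraries labelled HIF2α AKO. All 3 cold WT mice were above the TN WT mice, while the temperatures overlapped in the libraries labelled HIF2α AKO. The log2 fold change over both genotypes was 0.51 (SE 0.23, adjusted p = 0.0901), within which single mice in the cold spread from 52.4 to 132 CPM.

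The cryptochromes are the stronger inhibitors of BMAL1 and CLOCK, and neither was called. Cry1 was at 17.9, 15.2 and 15.8 CPM in TN WT, 15.8, 17.4 and 16.5 CPM in TN libraries labelled HIF2α AKO, 19.6, 19.3 and 28.3 CPM in cold WT and 26.0, 13.4 and 20.5 CPM in cold libraries labelled HIF2α AKO. A single cold mouse, AKO replicate 2, lay below the TN mice, and the others were above all of them. The log2 fold change was 0.36 (SE 0.15, adjusted p = 0.0696), and it was 0.47 without that library (adjusted p = 0.0122). Cry2 ranged from 26.7 to 59.8 CPM at TN and from 49.6 to 68.6 CPM upon cold, with a log2 fold change of 0.37 (SE 0.19, adjusted p = 0.123). Cry2 passed the limit without TN AKO replicate 2, the highest TN mouse and one with skeletal muscle RNA, at 0.50 (adjusted p = 0.0396). Without the 3 libraries with skeletal muscle or epithelial RNA its log2 fold change was 0.58 (adjusted p = 0.0397).

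The REV-ERB receptors Nr1d1 and Nr1d2 bind heme and repress Arntl through ROR elements. Nr1d2 was at 35.1, 37.7 and 33.3 CPM in TN WT, 41.5, 41.4 and 32.6 CPM in TN libraries labelled HIF2α AKO, 52.6, 51.7 and 41.9 CPM in cold WT and 55.1, 75.5 and 43.1 CPM in cold libraries labelled HIF2α AKO. The lowest cold mouse was just above the highest TN mouse, so that the 6 and 6 did not overlap. Nr1d2 rose by 0.53 on the log2 scale (SE 0.13, adjusted p = 0.00736). Nr1d1 was the most variable of the 10 genes. It was at 57.8, 65.5 and 123 CPM in TN WT, 61.8, 69.0 and 62.1 CPM in TN libraries labelled HIF2α AKO, 119, 68.9 and 86.2 CPM in cold WT and 88.3, 216 and 72.9 CPM in cold libraries labelled HIF2α AKO. A single TN mouse, WT replicate 3, was above 5 of the 6 cold mice, and cold AKO replicate 2 stood above all others. The log2 fold change was 0.56 (SE 0.28, adjusted p = 0.118). It was 0.24 without cold AKO replicate 2, 0.77 without TN WT replicate 3 (adjusted p = 0.0364) and 0.89 without the 3 libraries with skeletal muscle or epithelial RNA (adjusted p = 0.039). With all mice, voom with sample quality weights gave 0.81 and called Nr1d1 (adjusted p = 0.0184), whereas DESeq2 did not call it. Thra, which shares exon bases with Nr1d1, had a log2 fold change of 0.05 upon cold (adjusted p = 0.728).

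Dbp encodes a PAR bZIP activator, the output arm of the loop, and was the least counted of the 10 genes, with 116 to 515 counts per library. Its CPM was 5.32, 5.07 and 4.40 in TN WT, 6.62, 5.81 and 4.10 in TN libraries labelled HIF2α AKO, 8.10, 15.7 and 9.86 in cold WT and 13.2, 20.7 and 8.77 in cold libraries labelled HIF2α AKO. Every cold mouse was above every TN mouse. Dbp rose by 1.28 on the log2 scale (SE 0.23, adjusted p = 0.00149), a fold of 2.42. Sphk2, which shares 539 exon bases with Dbp on the other strand, had a log2 fold change of 0.38 (SE 0.08, adjusted p = 0.00372), so that it moved in the same direction. The part of these shared reads in the difference of Dbp was not tested.

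Within WT, cold against TN called 3 of the 10 genes, where 21.3% of all tested genes were called and 15.6% as higher. These were Per2 at 1.18 (SE 0.19, adjusted p = 0.00229), Per3 at 1.30 (SE 0.18, adjusted p = 0.00132) and Dbp at 1.18 (SE 0.33, adjusted p = 0.0268). The 3 cold WT mice were above the 3 TN WT mice in 7 genes, Clock, Per1, Per2, Per3, Cry1, Nr1d2 and Dbp, against 22.7% of all tested genes. With 3 mice against 3 the exact permutation test cannot give a p below 0.1. The call of Dbp was lost when any TN WT mouse, cold WT replicate 2 or cold WT replicate 3 was left out, with adjusted p between 0.0559 and 0.0843 and log2 fold changes between 0.83 and 1.27. Without the 3 libraries with skeletal muscle or epithelial RNA, Dbp missed the limit (adjusted p = 0.0815) and Clock passed it at 0.49 (adjusted p = 0.0332). At the study's thresholds 7 of the 10 genes passed in WT, against 52.5% of all tested genes.

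Within the libraries labelled HIF2α AKO, 4 of the 10 genes were called, where 27% of all tested genes were called and 15.6% as higher. Per2 rose by 0.98 (SE 0.18, adjusted p = 0.00434), Per3 by 1.10 (SE 0.18, adjusted p = 0.00197), Dbp by 1.37 (SE 0.33, adjusted p = 0.0131) and Nr1d2 by 0.59 (SE 0.18, adjusted p = 0.0361) on the log2 scale. No overlap between the temperatures was seen for 6 genes, Clock, Nr1d1, Nr1d2, Per2, Per3 and Dbp, against 24.9% of all tested genes that were higher in each cold mouse. Dbp and Nr1d2 fell short of the limit without TN AKO replicate 3 (adjusted p = 0.0511 and 0.115) and without both libraries with skeletal muscle RNA (adjusted p = 0.0661 and 0.0988), which left 2 called genes. Nr1d2 was also lost without TN WT replicate 1, TN AKO replicate 1 or cold AKO replicate 1 or 2, with adjusted p between 0.0531 and 0.127. The study's thresholds were met by 6 of the 10 genes, against 54.6% of all tested genes. In the plot of fold changes, the SE bars of the 2 genotypes overlapped for each gene except Nr1d1. The difference between the genotypes in the response to cold was not called for any of the 10 genes and for 0 of all tested genes (327 of them, or 2.14%, had an unadjusted p under 0.05, none of the 10 among them), and DESeq2 and voom called none either. Its largest value was 0.81 for Nr1d1 (SE 0.56), with a 95% interval from -0.42 to 2.04, and its lowest was -0.49 for Per1, with an interval from -1.51 to 0.53. Both moved with 1 library, to 0.17 for Nr1d1 without cold AKO replicate 2 and to -0.11 for Per1 without cold WT replicate 1.

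**Figure D2:**
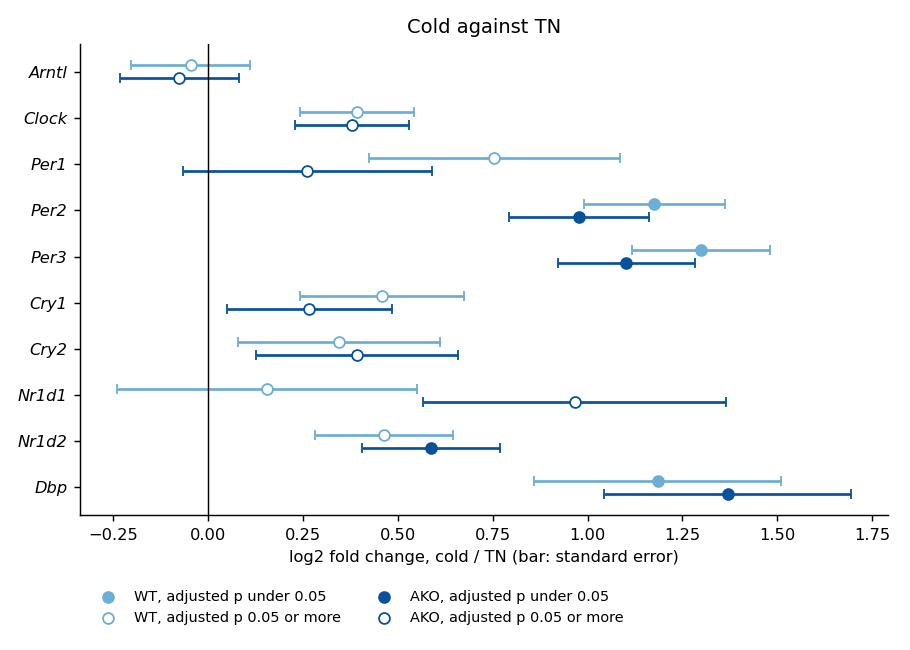
Log2 fold change of cold against TN for each clock gene in WT (light blue) and in libraries labelled HIF2α AKO (dark blue), with the SE as bars and filled points for adjusted p under 0.05. Per2, Per3 and Dbp were called in both genotypes, and Arntl lay at 0 within its error.

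Markers of several cell types also moved with temperature. The 8 adipocyte markers summed to between 4633 and 12610 CPM at TN and between 15230 and 29430 CPM upon cold, with 6 of 8 called higher. The 6 thermogenic markers summed to between 17.1 and 68.9 CPM at TN and between 3291 and 8414 CPM upon cold (6 of 6 higher), with Elovl3 at 0 in TN AKO replicate 1. The 8 lymphocyte markers, a sign of lymph node in the pad, summed to between 1011 and 1685 CPM at TN and between 536 and 973 CPM upon cold (8 of 8 lower). The part of these cells in the differences of the clock genes was not tested. In bulk tissue, more cells of a type and more RNA per cell cannot be told apart.

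Other genes of the clock, listed by role, were read in the same fit. Of the 31 listed genes, 30 were in the table and tested, and cold against TN over both genotypes called 16 of them, 12 higher and 4 lower. The share of 53.3% stands beside 48.8% of all tested genes, of which 24.8% were called higher and 24% lower. Their differences are shown in the plot of other clock genes. In the loop list 6 of 10 genes were called higher and 1 lower, with a median log2 fold change of 0.64. The output list had 4 of 11 called higher and all 11 estimates above 0, with a median of 0.33, and the list of proteins that modify clock proteins had 2 of 9 higher and 3 lower, with a median of -0.11.

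**Figure D3:**
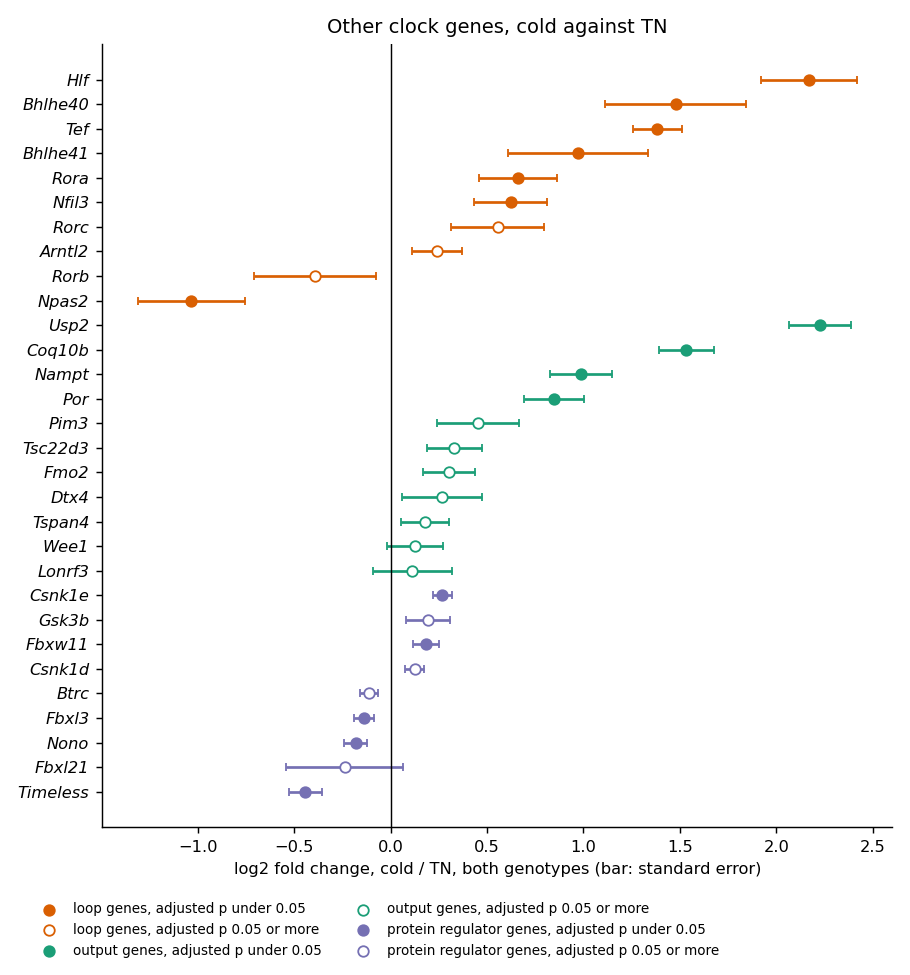
Log2 fold change of cold against TN over both genotypes for 30 other clock genes, in 3 lists by role, with the SE as bars and filled points for adjusted p under 0.05. Usp2, Hlf, Coq10b and Tef were among the higher genes, and Npas2 was the lowest at -1.03.

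Hlf and Tef encode the other PAR bZIP activators, which bind the same D-box as DBP. Hlf was at 5.14, 4.25 and 5.32 CPM in TN WT, 3.31, 7.98 and 8.69 CPM in TN libraries labelled HIF2α AKO, 14.8, 29.0 and 23.1 CPM in cold WT and 38.7, 25.9 and 24.8 CPM in cold libraries labelled HIF2α AKO. Its log2 fold change was 2.17 (SE 0.25, adjusted p = 8.66e-05). Tef was between 44.0 and 75.8 CPM at TN and between 103 and 168 CPM upon cold, with a log2 fold change of 1.38 (SE 0.13, adjusted p = 2.41e-05). All 3 PAR bZIP genes were thus higher in each cold mouse than in each TN mouse, as were 16% of all tested genes. Nfil3, which encodes the repressor of the D-box, was called higher as well, at 0.62 (SE 0.19, adjusted p = 0.0195). It was named after its values were seen. Also called higher in the loop list were Bhlhe40 at 1.48 (SE 0.36, adjusted p = 0.00765), Bhlhe41 at 0.97 (adjusted p = 0.0464) and Rora at 0.66 (adjusted p = 0.0203).

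Among the outputs, Usp2, a deubiquitinase under clock control, had the lowest adjusted p of the listed genes. It was between 5.21 and 10.9 CPM at TN and between 27.4 and 45.7 CPM upon cold, with a log2 fold change of 2.23 (SE 0.16, adjusted p = 1.07e-05). Coq10b, which encodes a coenzyme Q binding protein, rose by 1.53 on the log2 scale (SE 0.14, adjusted p = 2.60e-05). Nampt, the rate-limiting enzyme of NAD salvage, rose by 0.99 (SE 0.16, adjusted p = 8.24e-04), and Por, the electron donor of cytochrome P450 enzymes, by 0.85 (SE 0.16, adjusted p = 0.00164). These 4 genes were higher in each cold mouse too, again beside 16% of all tested genes. Of the protein regulators, Csnk1e, a casein kinase that phosphorylates PER proteins, rose by 0.27 (SE 0.05, adjusted p = 0.00149) and Timeless, which acts at replication forks in mammals, had a log2 fold change of -0.44 (SE 0.09, adjusted p = 0.00242).

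Npas2, the paralog of Clock that also pairs with BMAL1, was among the 4 genes that fell and was singled out after its values were seen. Its CPM was 14.9, 10.0 and 12.8 in TN WT, 9.51, 15.5 and 13.9 in TN libraries labelled HIF2α AKO, 11.0, 3.25 and 11.3 in cold WT and 5.81, 4.38 and 3.61 in cold libraries labelled HIF2α AKO. Of the cold WT mice, 1 was below the cold mice labelled HIF2α AKO and the other two lay within the TN range. The log2 fold change was -1.03 over both genotypes (SE 0.28, adjusted p = 0.0114), -0.56 in WT (adjusted p = 0.294) and -1.50 in libraries labelled HIF2α AKO (adjusted p = 0.0203). The difference between the genotypes was -0.94 (SE 0.55) and was not called (adjusted p = 1). The ratio of Npas2 to Clock CPM within a library, not corrected for length, was between 0.15 and 0.226 at TN and between 0.0407 and 0.124 upon cold.

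Between the labelled genotypes, none of the 10 clock genes was called at TN, in the cold or over both temperatures. In each of these comparisons 1 of the 15306 genes was called, or 0.00653%, and DESeq2 and voom on all libraries called none of the 10 either. At TN, 2 of the 10 genes, Per1 and Per2, had an unadjusted p under 0.05, against 2.91% of all tested genes. Over both temperatures the same holds for Per1 and Per2 against 3.64%, and in the cold for none of the 10 against 2.95%. At the study's thresholds Per1 and Per2 passed at TN (8.63% of all tested genes) and over both temperatures (7.99%), and none of the 10 passed in the cold (8.98%). At TN both were higher in each library labelled HIF2α AKO than in each WT library, as were 3.69% of all genes. The intervals are wide, so the data leave room for differences in either direction for most of the 10 genes.

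For Per1 the TN values of 37.1, 41.9 and 45.4 CPM in WT stood against 62.3, 61.3 and 93.9 CPM in libraries labelled HIF2α AKO. The log2 fold change was 0.81 (SE 0.33, 95% interval 0.08 to 1.53, unadjusted p = 0.0324 and adjusted p = 0.9995 in edgeR). In the cold the groups overlapped, with 0.31 (SE 0.33, 95% interval -0.41 to 1.03), which turned to -0.12 without cold AKO replicate 3. Per2 had a log2 fold change of 0.45 at TN (SE 0.19, 95% interval 0.04 to 0.86, unadjusted p = 0.0338 and adjusted p = 0.9995 in edgeR), where the 3 WT mice were between 11.4 and 12.8 CPM and the 3 mice labelled HIF2α AKO between 15.8 and 17.5 CPM. In the cold it was 0.25 (SE 0.18, 95% interval -0.15 to 0.65), with overlap. Two-sided exact permutation of 3 TN mice against 3 gave p = 0.1 for each gene, which is the smallest it allows.

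The other eight genes gave no such separation. At TN their log2 fold changes lay between -0.35 for Nr1d1 and 0.27 for Per3, and the interval of Nr1d1 reached down to -1.22. Both ends rested on single libraries, since Nr1d1 was at 0.06 without TN WT replicate 3 and Per3 at 0.04 without TN AKO replicate 2. In the cold all 10 genes overlapped between the genotypes, where 7.53% of all tested genes did not. The estimates lay between -0.19 for Arntl and 0.46 for Nr1d1 there, and the 95% intervals reached from -0.65 (Cry1) to 1.33 (Nr1d1). Without cold AKO replicate 2 the estimate for Nr1d1 turned to -0.18, and without cold WT replicate 3 that for Arntl was -0.03. The narrowest interval over both temperatures was that of Clock, from -0.15 to 0.32 around 0.08. Of the 30 other clock genes none was called either. At TN, 1 of the 30 had an unadjusted p under 0.05, or 3.33%, which is near the 2.91% of all tested genes. This gene, Tsc22d3, a glucocorticoid-induced leucine zipper gene, was picked out for its p. It was at 60.9, 59.3 and 68.3 CPM in TN WT and at 102, 98.7 and 145 CPM in TN libraries labelled HIF2α AKO, with a log2 fold change of 0.87 (SE 0.20, adjusted p = 0.9995). In the cold it was at 132, 87.2 and 95.3 CPM in WT and at 107, 87.5 and 133 CPM in libraries labelled HIF2α AKO, which overlapped. In the cold 1 of the 30, Npas2, had an unadjusted p under 0.05, or 3.33%, again near the 2.95% of all tested genes. Its log2 fold change between the labelled genotypes was -0.89 (SE 0.40, unadjusted p = 0.0476 and adjusted p = 0.9999 in edgeR), with overlapping values.

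**Figure D4:**
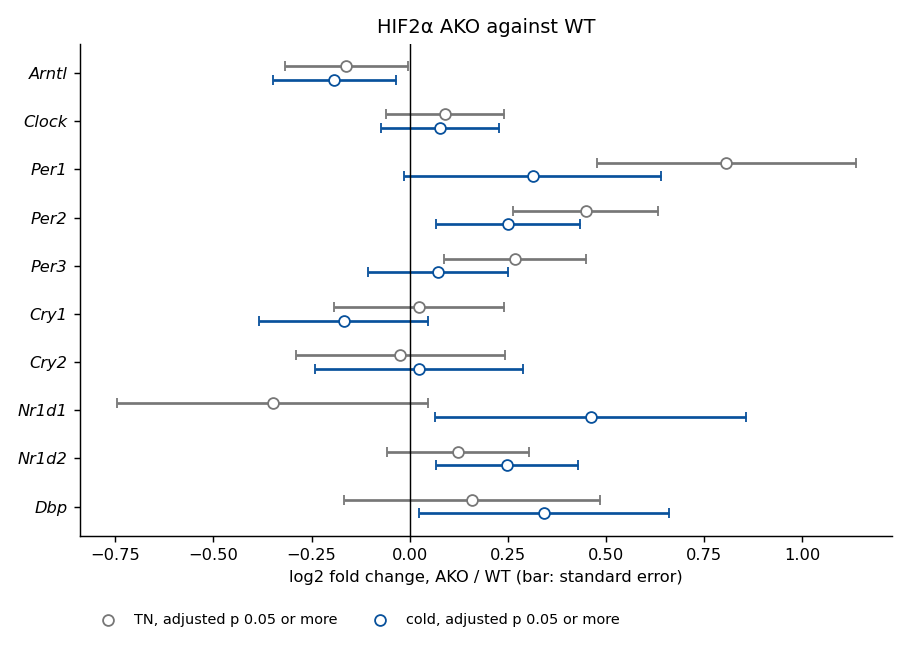
Difference between libraries labelled HIF2α AKO and WT, as log2 fold change, for each clock gene, at TN (grey) and in the cold (blue), with the SE as bars. All points are open because no adjusted p was under 0.05, and among the TN estimates those of Per1 (0.81) and Per2 (0.45) were the 2 farthest above 0.

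Mice of 1 group differed more in some clock genes than in others. The SD between mice of a group, pooled over the 4 groups on the log2 scale, was 0.55 for Nr1d1, which placed it at the 90.5th percentile of the tested genes, 0.45 for Per1 (84.4th) and 0.44 for Dbp (83.0th). Clock (0.20, 44.4th) and Arntl (0.21, 47.7th) varied no more than the median gene, at 0.22. The deviations of single mice from their group mean are shown in the plot of deviations. Cold AKO replicate 2 was the highest of its group for Nr1d1 (0.95), Nr1d2 (0.42) and Dbp (0.62) and the lowest for Per2 (-0.50) and Cry1 (-0.52). In cold AKO replicate 3, Per1 (0.69) and Per2 (0.35) were above the group mean and Nr1d1 (-0.61), Nr1d2 (-0.39) and Dbp (-0.61) below it.

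**Figure D5:**
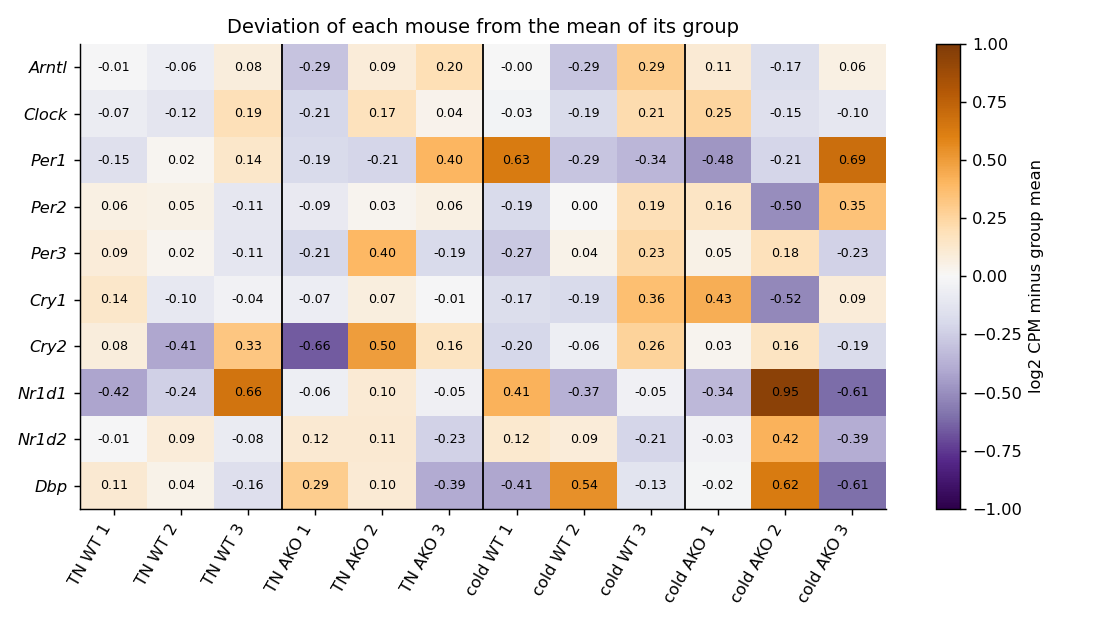
Deviation of each mouse from the mean of its group in log2 CPM (color scale and printed values), for the 10 clock genes in rows and the 12 mice in columns. In cold AKO replicate 2 the REV-ERB genes and Dbp were above and Per2 and Cry1 below the group mean.

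Over the 12 libraries, these deviations were correlated between some genes, which is given as a description without a test, since the 12 values share their group means, their libraries and their scaling. Pearson's r was 0.82 between Arntl and Clock, 0.80 between Per2 and Cry1 and 0.79 between Nr1d2 and Dbp. It was -0.85 between Per2 and each of Nr1d1 and Nr1d2, -0.75 between Per1 and Dbp and -0.69 between Arntl and Dbp. Per2 deviated farthest in cold AKO replicate 2 (-0.50) and replicate 3 (0.35), so these mice weighed most in its r with Nr1d1 and Nr1d2. Its r without them was not tested. Among 13134 genes with a mean count of at least 50, the deviations most like those of Dbp were those of 1810026B05Rik (0.948), Cdkn1b (0.936), Larp7 (0.933), Lrrcc1 (0.931) and 3632451O06Rik (0.927), and the most opposite were those of Vps11 (-0.978), Pold2 (-0.951), Wdr59 (-0.918), Zfp341 (-0.911) and Tsc22d3 (-0.91). For Arntl they were Swsap1 (0.978), Tom1 (0.962), Mrpl22 (0.958), Pde4d (0.953) and Slc11a2 (0.95), and at the other end Fbxo24 (-0.958), Gtdc1 (-0.94), Fam76b (-0.938), Klf16 (-0.934) and Wipf2 (-0.934). These genes were taken from the ends of a list of 13134 values over 12 points each, and no test was made.

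Levels were compared between genes only per length, as CPM per kb of annotated exon. Nr1d1 was the highest of the 10 genes in each group, at 30.1 ± 12.99 (SD, n = 3) at TN and 33.5 ± 9.29 (SD, n = 3) upon cold in WT mice. In mice labelled HIF2α AKO it was at 23.6 ± 1.504 (SD, n = 3) at TN and 46.2 ± 28.8 (SD, n = 3) upon cold. Per2 was the lowest in each group, from 2.11 ± 0.133 (SD, n = 3) in TN WT to 5.66 ± 1.61 (SD, n = 3) in the cold group labelled HIF2α AKO. In TN WT the order below Nr1d1 was Arntl (12.1), Cry2 (10.4), Nr1d2 (7.58), Per1 (7.37), Clock (6.99), Cry1 (5.39), Per3 (3.07), Dbp (2.69) and Per2. In cold WT it was Cry2 (13.3), Per1 (12.4), Arntl (11.7), Nr1d2 (10.4), Clock (9.17), Per3 (7.56), Cry1 (7.41), Dbp (6.11) and Per2 (4.76). Neighbours such as Arntl and Cry2, or Nr1d2, Per1 and Clock, lay within 1 SD of each other in TN WT, while Nr1d1 stayed apart from Arntl in every mouse. Arntl was the second highest in TN WT and the fifth in cold libraries labelled HIF2α AKO, below Per1, Cry2 and Nr1d2.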

How the data were processed

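Whole-pad iWAT RNA of 12 mice was sequenced. The authors trimmed reads with Trim Galore 0.4.4, aligned them with STAR 2.6.1d to GRCm38 and counted them with HTSeq 0.13.5, and the submitters' notes also name DESeq2 1.30.0. The values that the authors deposited are raw counts per gene, without normalization. The annotation and strand setting are not given in the sources used here. Tallies outside genes (21.9 to 27.0% of reads) were left out. Libraries held 22368316 to 35204631 counts, and where a gene has 0 counts, up to 3 remain possible from counting error alone.

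Genes were kept by filterByExpr (minimum count 10, minimum total 15; 15306 of 23420) and fitted in edgeR 4.0.16 (R 4.3.3, limma 3.58.1) with TMM scaling, 1 factor of 4 groups and Benjamini-Hochberg adjustment over all tested genes at 0.05. CPM are TMM-scaled, and log2 CPM used a prior count of 2. Exact permutation tests were two-sided. The labels do not name separate litters or days, and p-values measure the spread between these mice. The clock genes and all lists were chosen with earlier results of these data known. Related genes were named by p in the cold comparison, up to 8, and others after their values were seen. Intervals are 95% from the fit's t quantile. DESeq2 1.42.0, voom, other scalings, filters and thresholds and left-out libraries were tried as alternatives, and the pipeline was tested on simulated data. Gene spans are from a GENCODE M21 annotation of GRCm38 and promoters from RefSeq.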

Additional observations from a re-analysis of the deposited data

How the results depend on the processing

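Over both genotypes, the calls of Per2, Per3, Nr1d2, Dbp and Clock upon cold kept their direction and stayed under the limit in all 21 alternatives. Per2 lay between 0.905 and 1.183 on the log2 scale, Per3 between 1.088 and 1.315, Dbp between 1.091 and 1.405, Nr1d2 between 0.407 and 0.66 and Clock between 0.273 and 0.436. Leaving out 1 library at a time gave 2 to 4 called genes in WT, 2 to 5 in libraries labelled HIF2α AKO (2 without TN AKO replicate 3) and 5 to 6 over both genotypes. In WT, 3 called genes became 6 with voom and sample quality weights, 5 with DESeq2 on the compared groups alone and 7 at the study's thresholds (unadjusted p under 0.15 and absolute log2 fold change above 0.2). In libraries labelled HIF2α AKO, 4 became 2 without both libraries with skeletal muscle RNA and 2 without the 3 libraries with skeletal muscle or epithelial RNA, which were alternatives chosen after seeing the data. In the same libraries, 4 became 6 with DESeq2 on all libraries, which added Clock (adjusted p = 0.0498) and Nr1d1 (adjusted p = 0.0408). Nr1d1 was also added, giving 5 called genes, with voom (adjusted p = 0.0355) and with DESeq2 on the compared groups alone (adjusted p = 0.0242). The study's thresholds gave 9 genes for cold over both genotypes, and 2 (Per1 and Per2) for the labelled genotypes at TN and 2 over both temperatures. Nr1d2 in libraries labelled HIF2α AKO was also lost with upper quartile scaling (adjusted p = 0.0618 in edgeR). It was lost as well with the compared groups alone in edgeR (adjusted p = 0.0601), though not in DESeq2. The cause of these changes was not tested. Upper quartile scaling moved the median of all genes upon cold from -0.052 to -0.165 and the share of calls that were higher from 50.9 to 35.6% over both genotypes, from 73.3 to 42.6% in WT and from 57.5 to 42.4% in libraries labelled HIF2α AKO.

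Replicate numbers did not pair the libraries: 5 of 18 same-numbered pairs had deviations correlated above 0.1 (range -0.426 to 0.392), and 2 of 12 libraries correlated best with their own number. With the replicate block, 4 clock genes were called in WT against 3 (Nr1d2 added, adjusted p = 0.0364 in edgeR), and the block changed no other call of the 10 genes.

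With 3 mice per group, the 95% intervals for the labelled genotypes at TN reached from -1.221 (Nr1d1) to 1.531 (Per1).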

Other observations

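Because Per3 held a D-box more than once, the genes with such windows were read upon cold, a choice made after the values were seen. Of 103 tested genes with a D-box in a promoter window, 34 (33%) were called higher and 22 (21.4%) lower, with a median log2 fold change of 0.027. The shares over all tested genes were 24.8% and 24%. Genes with 1 or more of another searched motif were also called higher more often than all genes. Their shares ran from 27.7% (E-prime box) to 28.9% (cAMP response element) higher and from 21.5 to 24.7% lower. Whether the D-box share differs from these was not tested. Per3 (1.20, called higher) prompted the choice and is among the 103, so its own value is no separate evidence. Of the other tested genes with more than 1 D-box, Abhd11 at 0.99 and Alb at 1.51 were called higher. Il1rl2, the last of them, was called lower at -0.59. All calls are from edgeR's quasi-likelihood test, and the set itself was not tested.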
